A study of Mus musculus with 8 samples.

Results

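The miR-34 family was followed in small RNA libraries of mouse fibroblasts. Its members were taken as every microRNA row named for mmu-miR-34a, mmu-miR-34b or mmu-miR-34c, either arm of the hairpin. The rule goes by name, but it was chosen with earlier results of these data known. The rule found 6 rows of 813 microRNA rows and 2403 small RNA features in all, namely miR-34a-5p, miR-34a-3p, miR-34b-5p, miR-34b-3p, miR-34c-5p and miR-34c-3p. All 6 passed the filter on low values, a value of at least 10 in at least 2 libraries, and so did 579 microRNAs and 1540 features.

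The libraries came from immortalized skin fibroblasts, of C57BL/6 mice (WT) or of C57BL/6 mice carrying mir210lox/lox, whose samples are titled KO. Each genotype was held for 24 h at 21% O2 (normoxia) or at 1% O2 (hypoxia), so immortalization and the C57BL/6 background were common to all groups. The 4 groups had 2 libraries each, numbered 1 and 2. Nothing in the labels ties the libraries of a group to separate cultures or lines, so each p-value reflects the spread between libraries that may be technical repeats.

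The miR-34 family is known as a set of direct transcriptional targets of p53, the tumour suppressor that responds to DNA damage and other stress. miR-34a comes from a gene of its own, while miR-34b and miR-34c are processed from 1 shared primary transcript. The mature 5p strands lower messenger RNAs for cell cycle and survival proteins such as cyclin-dependent kinases, MET and BCL2, and skin fibroblasts and keratinocytes are among the cells in which this p53 response has been described. A microRNA recognises its targets mostly through its seed, bases 2 to 8 from the 5′ end, and the 2 arms of a hairpin have different seeds.

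The 6 rows are shown here because the family is defined by its seed, which the 5p arms carry and the 3p arms do not. The sequences are those in the deposited table, written 5′ to 3′ with the seed of the mature microRNA in capitals. For 522 of the 556 microRNA rows named in the RefSeq table, 93.9%, the deposited sequence is the RefSeq mature sequence with 1 more base at each end. That holds for the 5 members named there, so the seed begins at the third letter shown.
miR-34a-5p: ttGGCAGTGtcttagctggttgtt
miR-34b-5p: taGGCAGTGtaattagctgattgta
miR-34c-5p: taGGCAGTGtagttagctgattgct
miR-34a-3p: caATCAGCAagtatactgcccta
miR-34b-3p: caATCACTAactccactgccatca
miR-34c-3p: caATCACTAaccacacagccaggt
The 3 5p rows share the seed GGCAGTG. Over the 25 letters listed for each, miR-34b-5p and miR-34c-5p differ by A12G, T24C and A25T, with the miR-34b-5p base first and positions counted from 1 at the 5′ end of the listed sequence. Among the 3p arms, miR-34b-3p and miR-34c-3p share ATCACTA, which no other microRNA row has, and differ at 6 of 24 listed letters, while ATCAGCA belongs to miR-34a-3p alone.

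Outside the family 3 further rows carry GGCAGTG, all from the miR-449 cluster, which is known from ciliated epithelia. They are shown because they would be counted with the 5p rows in any sum over the seed.
miR-449a-5p: ttGGCAGTGtattgttagctggtt
miR-449b: taGGCAGTGttgttagctggct
miR-449c-5p: caGGCAGTGcattgctagctggc
The 6 rows with this seed summed to 23078 to 44398 normalized read counts per library. The 3 miR-34 rows made up 95.5% to 98.0% of that sum, so almost all of it came from the family.

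The hairpins place the arms next to each other and are given from RefSeq on GRCm38.p6, with each arm in capitals as the deposited sequence without its first and last letter. The sources used here name no genome build for the table's own positions, so only the RefSeq positions are printed.
Mir34a: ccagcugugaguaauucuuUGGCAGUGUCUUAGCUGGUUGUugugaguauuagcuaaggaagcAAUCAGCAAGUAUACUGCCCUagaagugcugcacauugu
Mir34b: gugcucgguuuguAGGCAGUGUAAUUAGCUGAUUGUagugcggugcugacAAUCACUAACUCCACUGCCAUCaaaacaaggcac
Mir34c: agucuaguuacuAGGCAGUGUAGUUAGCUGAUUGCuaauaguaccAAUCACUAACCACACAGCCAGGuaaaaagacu
Mir34a lies at chr4:150068454-150068555 on the plus strand. In the GENCODE annotation its last 17 bases, past the 3p arm, overlap an exon of Gm37795, an unclassified transcript on the same strand. Mir34b lies at chr9:51103562-51103645 and Mir34c at chr9:51103034-51103110, both on the minus strand with 451 bases between the hairpins. Both sit inside the span of the protein-coding gene Btg4 on the opposite strand and overlap none of its exons, so they are intronic to it.

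Values are the authors' normalized read counts, whole numbers whose normalization method the sources used here do not name. They summed to 8618630 to 12167438 per library, and microRNAs took 73.0% to 82.0% of that sum. The share was 78.6% to 82.0% in WT and 73.0% to 80.2% in KO libraries, so genotype differences are also given relative to the microRNA sum of each library (the microRNA scale). Ribosomal RNA took 5.76% in KO hypoxia 1 and 1.69% to 2.88% in the other 7 libraries. miR-210-3p stood at 4786 to 39011 in WT and at 10 to 32 in KO libraries, lower in every KO library than in any WT library. MicroRNA markers of fibroblasts summed to 3667071 or more in every library, whereas the epithelial and ciliated markers, which include miR-449, summed to 967 to 1333 and the haematopoietic markers to 841 to 3078.

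The family was abundant in every library. miR-34c-5p ranked 46 of 813 microRNAs by mean, miR-34a-5p 59, miR-34b-3p 100, miR-34b-5p 103, miR-34c-3p 161 and miR-34a-3p 197. The 6 rows summed to 0.461% ± 0.0684 (SD, n = 8 libraries of all groups) of the microRNA count, with a range of 0.357% to 0.535%. Of the family sum miR-34c took 54.4% ± 2.56, miR-34a 29.6% ± 2.69 and miR-34b the rest (SD, n = 8). The split held within narrow limits, with miR-34b between 14.8% and 16.7% in every library and miR-34c between 49.9% and 58.5%. The 5p arms together took 88.1% ± 0.767 of the family (SD, n = 8).

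Neighbours in this order were compared within libraries, as normalized read counts of mature strands of nearly equal length. No correction was made for how well each sequence was ligated. miR-34c-5p was above miR-34a-5p in 8 of 8 libraries, at a ratio of miR-34a-5p to miR-34c-5p of 0.419 to 0.671. miR-34a-5p was above miR-34b-3p in 8 of 8, by 2.64 to 4.21 times. The 2 arms of miR-34b could not be ordered, since their 5p to 3p ratio ran from 0.759 to 1.08. miR-34c-3p was above miR-34a-3p in 6 of 8 libraries, the exceptions being KO normoxia 2 (472 against 524) and KO hypoxia 1 (537 against 561), where the counting intervals of the rows overlapped. With normalized counts taken as reads, the 95% exact binomial interval was ± 9.97% of the value for miR-34a-3p in WT normoxia 2, the lowest value of any member, and 1.25% for miR-34c-5p in WT hypoxia 2, and such intervals cover counting error only.

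**Figure D1:**
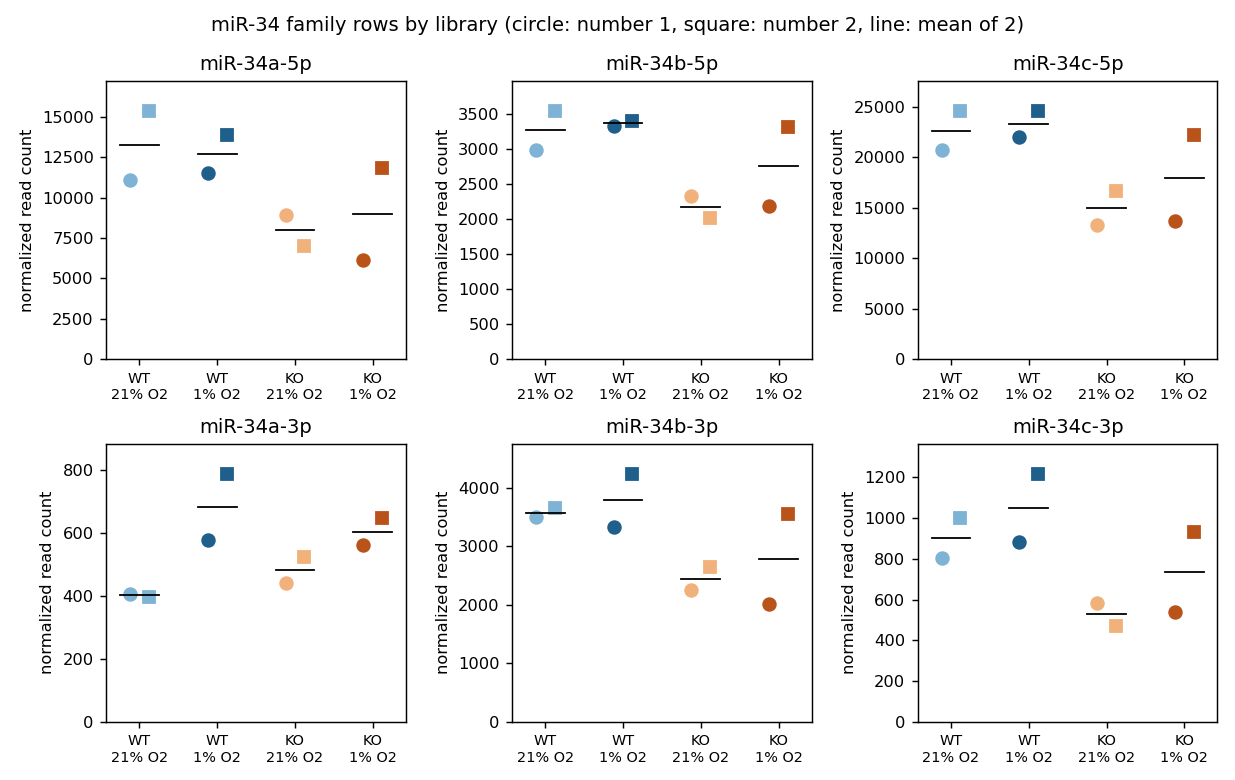
Normalized read counts of the 6 miR-34 rows (1 panel each, axis from 0) in each of the 8 libraries, by genotype and oxygen level, with circles for number 1, squares for number 2 and a line at the group mean. 5 rows are lower in both KO normoxia libraries than in both WT normoxia libraries, as are 20% of all features. In these rows KO hypoxia 2 lies near WT. miR-34a-3p is higher in each hypoxia library than in any normoxia library, as are 0.519% of features.

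The first comparison asked whether the family differed between the fibroblasts with and without miR-210. In normoxia 5 of the 6 rows were lower in both KO libraries than in both WT libraries, as were 20% of all features. Their KO group means were between 0.585 and 0.685 of the WT mean, and miR-34a-3p was the exception. None of the 6 passed the test. In the WT libraries the family sum was 39535 and 48543 at 21% O2 and 41710 and 48163 at 1% O2. In the KO libraries it was 27868 and 29339 at 21% O2 and 25144 and 42523 at 1% O2. KO hypoxia 2 was thus inside the WT range, and the other 3 KO libraries were below it. As a share of the microRNA count, the family sum was 0.482% to 0.535% in the WT libraries and 0.357% to 0.476% in the KO libraries. KO hypoxia 2 was the highest of KO, so these ranges did not overlap, by a narrow margin. Row by row, on that scale, 1 of 6 members had every KO library below every WT library, beside 1.75% of features. The ratio of KO to WT means was 0.650 in normoxia and 0.753 in hypoxia, and on the microRNA scale it was 0.771 and 0.819. In bulk RNA, fewer cells holding a microRNA and less of it per cell cannot be told apart.

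miR-34a-5p, the strand most studied as a p53 target and known for growth arrest, was read 11120 and 15384 times in the WT normoxia libraries and 8942 and 6993 times in those of KO. After hypoxia the WT libraries held 11525 and 13894 and the KO libraries 6144 and 11869. The normoxia groups did not overlap, while KO hypoxia 2 lay just above the lower WT hypoxia library. The difference KO minus WT of log2(value + 1) was -0.73 in normoxia (SE 0.35, 95% interval -1.52 to 0.06, limma adjusted p = 0.409) and -0.57 in hypoxia (SE 0.35, limma adjusted p = 0.845).

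miR-34c-5p, the most abundant member, was at 20727 and 24565 in the WT normoxia libraries, against 13325 and 16693 in KO. Its hypoxia values were 22067 and 24616 for WT and 13703 and 22202 for KO. KO hypoxia 2 was again above the lower WT hypoxia library, and the other 3 KO libraries were below all 4 WT libraries. The log2 difference was -0.60 in normoxia (SE 0.30, 95% interval -1.27 to 0.08, limma adjusted p = 0.425) and -0.42 in hypoxia (limma adjusted p = 0.912).

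Its partner strand miR-34c-3p, of unsettled function, had normoxia values of 804 and 1000 for WT against 584 and 472 for KO. The hypoxia values were 882 and 1219 for WT against 537 and 933 for KO. Of the family, this row had the lowest p in normoxia, with a log2 difference of -0.77 (SE 0.34, 95% interval -1.53 to -0.01, limma adjusted p = 0.357), and in hypoxia its difference was -0.55 (limma adjusted p = 0.839).

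Both arms of miR-34b, made from the transcript that also yields miR-34c, also had both KO normoxia libraries below both WT normoxia libraries. miR-34b-5p had WT values of 2981 and 3540 in normoxia and 3324 and 3400 in hypoxia, and KO values of 2326 and 2009 in normoxia and 2181 and 3314 in hypoxia. For miR-34b-3p the WT values were 3497 and 3657, then 3335 and 4245, and the KO values 2250 and 2648, then 2018 and 3558. miR-34b-5p was the row whose KO hypoxia libraries were both below the WT hypoxia libraries, at 3314 against 3324 for the closest pair. The log2 differences in normoxia were -0.59 for miR-34b-5p and -0.55 for miR-34b-3p (limma adjusted p = 0.409 and 0.494), and in hypoxia -0.32 and -0.49 (limma adjusted p = 0.958 and 0.872).

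miR-34a-3p, the strand of the miR-34a hairpin that does not carry the family seed, did not share this order of groups. Its WT values were 406 and 397 in normoxia and 577 and 789 in hypoxia, and its KO values 441 and 524 in normoxia and 561 and 647 in hypoxia. Its normoxia values were higher in KO than in WT and its hypoxia values overlapped. The log2 difference was 0.26 in normoxia (SE 0.28, 95% interval -0.36 to 0.88, limma adjusted p = 0.742) and -0.16 in hypoxia (limma adjusted p = 0.967).

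Averaged over both oxygen levels, the mean genotype difference was -0.65 for miR-34a-5p (SE 0.25), -0.66 for miR-34c-3p (SE 0.24), -0.52 for miR-34b-3p (SE 0.22), -0.51 for miR-34c-5p (SE 0.21), -0.45 for miR-34b-5p (SE 0.20) and 0.05 for miR-34a-3p (SE 0.20). With limma the unadjusted p of the 5 lower rows ran from 0.0207 for miR-34c-3p to 0.0486 for miR-34b-5p, and their adjusted p from 0.197 to 0.275. So 0 of 6 members were called at an adjusted p under 0.05, where 2 of all 1540 features, 0.13%, were called. The counts were likewise 0 of 6 in normoxia, where 0.0649% of features were called, and 0 of 6 in hypoxia, where 0.13% were. At an unadjusted p under 0.05, 5 of 6 members were lower in KO in the mean of both oxygen levels, beside 5.45% of all features lower and 17.8% in either direction. In normoxia alone 1 of 6, miR-34c-3p, was lower at that level, beside 4.81% of features lower and 13.4% in either direction. In hypoxia 0 of 6 members differed in either direction at that level, beside 9.03% of features. The 5 lower rows were correlated across libraries and so do not count as 5 separate observations.

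The median mean genotype difference was -0.51 over the members, -0.17 over the 579 microRNAs and -0.06 over all features tested. Of the microRNAs, 9.84% had a lower difference than miR-34c-3p, 11.1% a lower one than miR-34a-5p and 69.4% a lower one than miR-34a-3p. For miR-34b-3p, miR-34c-5p and miR-34b-5p the share was 16.9%, 18.1% and 23.3%. Over the 5 rows other than miR-34a-3p it was 16.9% to 31.4% in normoxia alone and 8.81% to 24.2% in hypoxia. The members' negative differences thus lay in the lower part of a microRNA distribution that was itself shifted below 0. The microRNA scale moved the median of all features from -0.06 to 0.13. On that scale the 5 rows stayed lower in KO, with mean genotype differences of -0.26 for miR-34b-5p to -0.46 for miR-34c-3p (limma adjusted p 0.456 to 0.808), and miR-34a-3p stood at 0.24. The 5 rows stood at -0.314 to -0.534 in normoxia on that scale, where miR-34c-5p went from -0.60 to -0.360, and at -0.168 to -0.413 in hypoxia. miR-34a-3p stood at 0.496 in normoxia and -0.00884 in hypoxia, with limma adjusted p from 0.620 to 0.997 over the 6 members in these 2 comparisons.

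**Figure D2:**
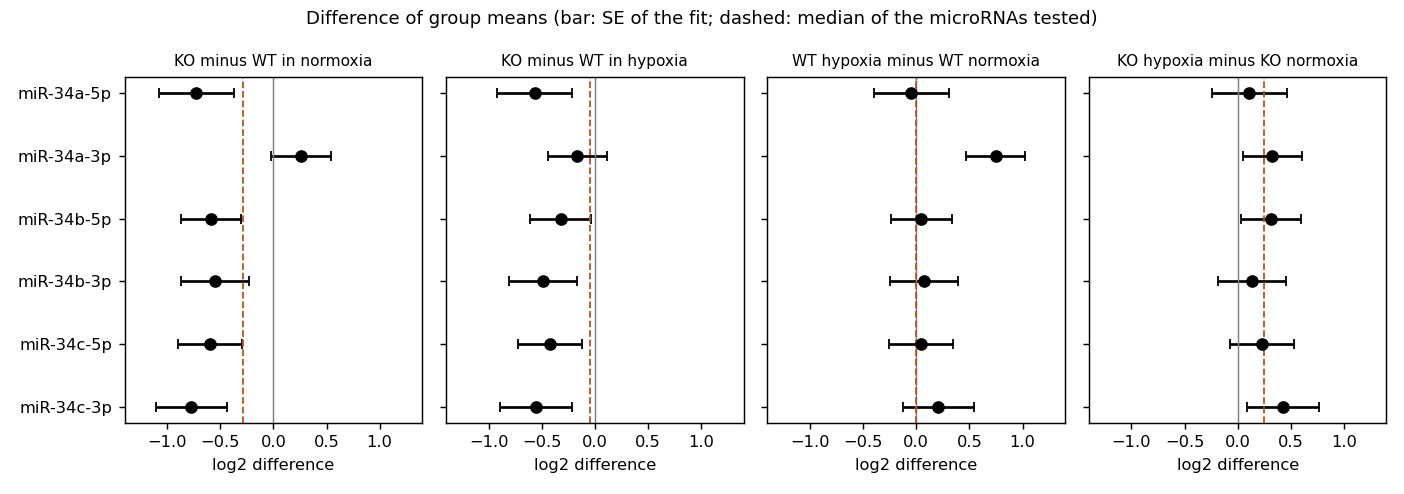
Log2 differences with standard errors from the limma fit for the 6 miR-34 rows in the 4 comparisons of group pairs, with a dashed line at the median of the microRNAs tested. The 5 rows other than miR-34a-3p lie at -0.32 to -0.77 in both comparisons of KO with WT, and no row passes an adjusted p of 0.05.

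In normoxia 5 of 6 members had both KO libraries below both WT libraries, as had 20% of all features, and 5 of 6 on the microRNA scale, as had 9.16%. In hypoxia the count was 1 of 6, beside 16.6% of features, and on the microRNA scale 3 of 6 (miR-34a-5p, miR-34b-3p and miR-34c-3p), beside 8.31%. With all libraries, no member had every KO library below every WT library, beside 3.51% of features. Without KO hypoxia 2, 5 of 6 members had the 3 other KO libraries below all 4 WT libraries, beside 7.99% of features. Without WT normoxia 1 the count was 1 of 6, miR-34b-5p, and without any of the other 6 libraries it was 0. For these removals the share of all features was not computed, so these counts have no background beside them. KO hypoxia 2 differed from KO hypoxia 1 by 0.60 to 0.95 on the log2 scale in these 5 rows, and by 0.21 in miR-34a-3p. It also had the highest microRNA share of the KO libraries, 80.2% against 73.0% to 76.7%. That share was inside the WT range of 78.6% to 82.0%. KO hypoxia 1 had the lowest microRNA share of all libraries, 73.0%. Its ribosomal RNA share was the highest, 5.76% against 1.69% to 2.88%. On the microRNA scale the count was 1 of 6, miR-34a-5p, beside 1.75% of features. Either KO hypoxia library set the size of the difference in hypoxia. Without KO hypoxia 2 it was -1.04 for miR-34a-5p and -0.77 for miR-34c-5p (limma adjusted p = 0.461 and 0.523), and without KO hypoxia 1 it was -0.0924 and -0.0701 (limma adjusted p = 1 for both). Over the 5 rows the difference in hypoxia was -0.624 to -1.04 without KO hypoxia 2 and -0.0206 to -0.152 without KO hypoxia 1.

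**Figure D3:**
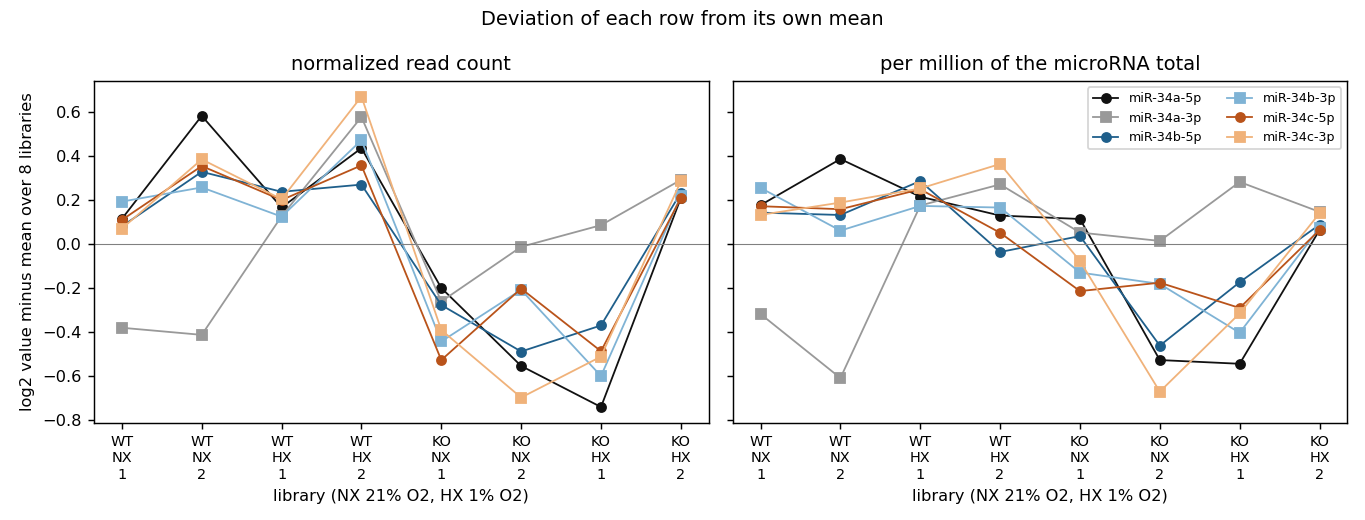
Deviation of each library from the mean over the 8 libraries, in log2, for each miR-34 row, as normalized read counts (left) and on the microRNA scale (right). On the left the 5 rows other than miR-34a-3p have KO hypoxia 2 near the WT libraries and the other 3 KO libraries below them. From KO normoxia 1 to KO normoxia 2, miR-34b-3p and miR-34c-5p go up, while miR-34a-5p, miR-34b-5p and miR-34c-3p go down. On the right the gap is smaller, and miR-34b-5p in KO normoxia 1 lies above WT hypoxia 2.

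The second comparison asked whether 24 h at 1% O2 moved the family. For 5 of the 6 rows the WT hypoxia and WT normoxia libraries overlapped. The log2 differences in WT were -0.05 for miR-34a-5p, 0.05 for miR-34b-5p, 0.07 for miR-34b-3p, 0.05 for miR-34c-5p and 0.21 for miR-34c-3p. Their 95% intervals were wide, -0.84 to 0.74 for miR-34a-5p and -0.63 to 0.72 for miR-34c-5p, so changes of up to about those sizes could not be told from none. In KO the differences were 0.11, 0.31, 0.13, 0.23 and 0.43 in the same order.

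miR-34a-3p stood apart. Its 4 hypoxia values, 561 to 789, were all above its 4 normoxia values, 397 to 524. The hypoxia difference was 0.75 in WT (SE 0.28, 95% interval 0.12 to 1.37, limma adjusted p = 1) and 0.33 in KO (SE 0.28, limma adjusted p = 0.901). Averaged over genotypes it was 0.54 (SE 0.20, 95% interval 0.10 to 0.98, limma adjusted p = 0.975). It was the single member of 6 with every hypoxia library above every normoxia library, and 8 of 1540 features, 0.519%, were so. On the microRNA scale miR-34a-3p kept this order, beside 0.325% of features, at a mean difference of 0.43 (limma adjusted p = 0.999). The median mean hypoxia difference over the 579 microRNAs was 0.12, against 0.54 for miR-34a-3p. By genotype, 98.1% of microRNAs had a lower hypoxia difference than miR-34a-3p in WT and 57.3% in KO. In KO the median over the microRNAs was 0.24, and miR-34c-3p, at 0.43, was above miR-34a-3p.

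None of the 6 members was called for hypoxia in WT, in KO or in their mean, and 0% of the 1540 features were called in any of these. At an unadjusted limma p under 0.05, 1 of 6 members was higher in WT hypoxia, beside 1.1% of features higher and 1.3% in either direction. In KO none of 6 was, beside 5.39% of features in either direction. In the mean of the genotypes 1 of 6 was higher, beside 2.34% of features higher and 3.57% in either direction.

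Whether the hypoxia difference depended on genotype was tested as the KO difference minus the WT difference. The interaction was -0.42 for miR-34a-3p and 0.06 to 0.27 for the other 5 rows, with a limma adjusted p of 1.00 for each. Standard errors made the test a coarse one, and the 95% interval for miR-34a-5p ran from -0.96 to 1.27. The test called 0 of 6 members and 0% of features, and 0 of 6 members had an unadjusted limma p under 0.05, beside 2.4% of features.

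Ratios of rows within a library do not depend on how libraries were scaled, and 6 such ratios were each compared over genotype and over oxygen, 12 tests in all. The 5p strand of miR-34a, which is kept as the guide, exceeded its 3p strand by 27.4 and 38.8 times in WT normoxia and by 20.0 and 17.6 times in WT hypoxia. In KO it exceeded it by 20.3 and 13.3 times in normoxia and by 11.0 and 18.3 times in hypoxia. Both WT normoxia libraries were higher than the other 6. The log2 ratio was 3.93 ± 0.41 in KO and 4.62 ± 0.51 in WT (SD, n = 4 libraries each), a difference of -0.69 (exact two-sided permutation p = 0.143, adjusted over 12 tests 0.748). Hypoxia minus normoxia was -0.50 (exact two-sided permutation p = 0.229, adjusted 0.748).

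For miR-34c the 5p strand was in 20.2-fold to 35.4-fold excess, inside the range of 11.0 to 38.8 seen for miR-34a. miR-34b gave both strands in nearly equal numbers, with 5p to 3p ratios of 0.759 to 1.08 that lay below the range of the other hairpins in every library. The ratio of miR-34b-3p to miR-34c-5p, from the shared transcript, was the steadiest of the 6, at 0.147 to 0.172 over all libraries. miR-34a-5p over miR-34b-3p varied more, from 2.64 to 4.21. None of the 12 exact permutation tests passed, with adjusted p from 0.748 to 0.829, where 4 libraries against 4 allow an unadjusted p no lower than 0.0286.

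**Figure D4:**
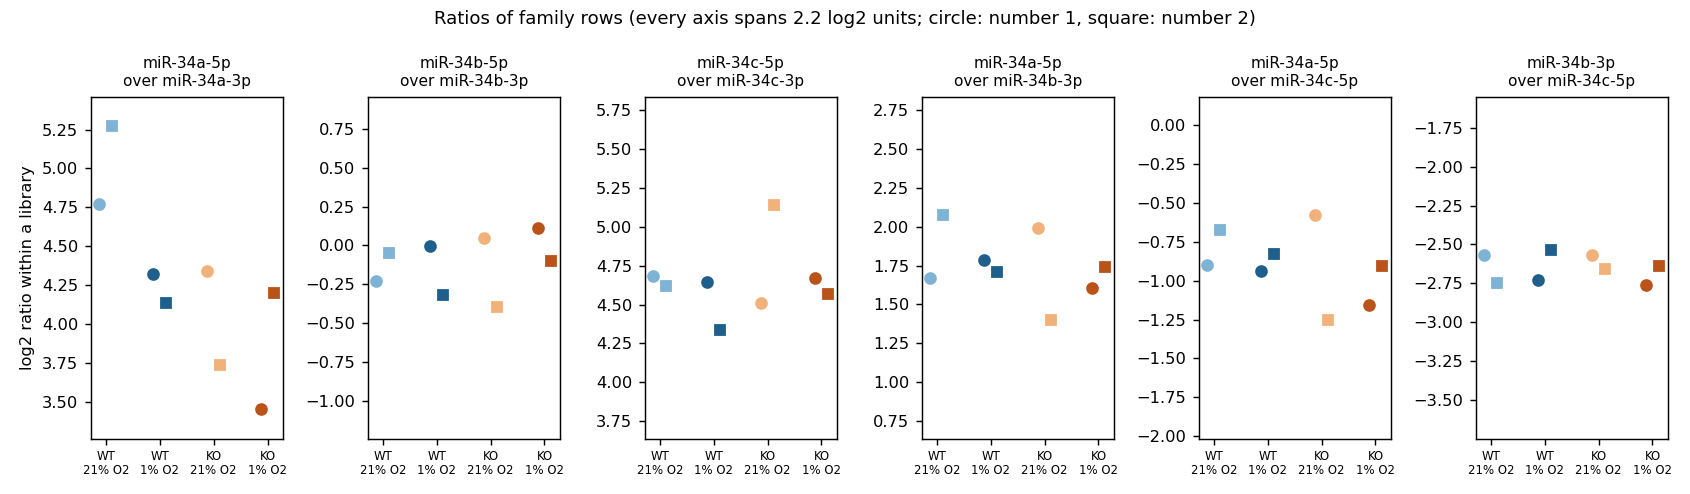
Within-library log2 ratios of miR-34 rows in the 8 libraries by group, for the 5p over 3p arm of each hairpin and for pairs of the most abundant rows. All axes span the same log2 range. miR-34b-3p over miR-34c-5p stays between 0.147 and 0.172 as a plain ratio, whereas miR-34a-5p over miR-34a-3p runs from 11.0 to 38.8.

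Across the 8 libraries the 5 rows other than miR-34a-3p were correlated with one another. The Pearson correlation of log2(value + 1) was highest for miR-34b-3p with miR-34c-5p, 0.972, and lowest for miR-34b-5p with miR-34b-3p, 0.876. miR-34a-5p, from another chromosome, reached 0.946 with miR-34b-5p. miR-34a-3p correlated with the other members at 0.040 to 0.326. These values describe 8 points that share library, depth and group. The 5 rows also correlated with the log2 microRNA total, at 0.714 to 0.885. They did not move together everywhere. From KO normoxia 1 to KO normoxia 2, miR-34b-3p rose by 0.23 and miR-34c-5p by 0.33 in log2. Over the same step miR-34a-5p changed by -0.35, miR-34c-3p by -0.31 and miR-34b-5p by -0.21. On the microRNA scale the 5 rows correlated with one another at 0.679 to 0.916, and miR-34a-3p with them at -0.484 to -0.128.

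Of the 573 microRNAs outside the family, those most like miR-34a-5p over the 8 libraries were miR-1839-3p (r = 0.972), miR-195-5p (0.965), miR-126-3p (0.964), miR-296-5p (0.955) and miR-466h-3p (0.951), where the median was 0.28. For miR-34b-3p they were miR-129-2-3p (0.967), miR-351-3p (0.960), miR-191-5p (0.958), miR-125a-5p (0.940) and miR-1839-3p (0.937). For miR-34c-5p they were miR-296-5p (0.944), miR-129-2-3p (0.937), miR-298-5p (0.932), miR-191-5p (0.927) and miR-143-5p (0.926). On the microRNA scale r was lower for all 15 pairs, at 0.881 to 0.941 with miR-34a-5p, 0.532 to 0.892 with miR-34b-3p and 0.740 to 0.791 with miR-34c-5p.

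The other carriers of the 5p seed were set beside the members. miR-449c-5p, the most abundant of them, averaged 804.5 ± 115 for WT at 21% O2 and 702 ± 156 for WT at 1% O2 (SD, n = 2 each). For KO it averaged 683 ± 21.2 at 21% O2 and 776.5 ± 46.0 at 1% O2 (SD, n = 2 each). Its mean genotype difference was -0.03 (SE 0.20), against 0.20 for miR-449b and 0.10 for miR-449a-5p, and 0 of the 3 rows tested was called. Whether these differences depart from those of the members was not tested.

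Other microRNAs of the p53 network were counted from lists of those described as induced by p53, repressed by it, or lowering it. Of the 25 p53-induced rows tested, 23 had a negative mean genotype difference and 2 a positive one, with a median of -0.27, and 0 were called. By mean level the first 4 were miR-22-3p at -0.22 (SE 0.30), miR-143-3p at -0.41 (SE 0.32), miR-29a-3p at -0.12 (SE 0.21) and miR-145-5p at -0.54 (SE 0.28). miR-22 and the miR-143 and miR-145 pair are also typical of mesenchymal cells, and miR-29a is known for lowering collagens.

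The p53-repressed list, the cluster from miR-17 to miR-92a that promotes proliferation, had the same sign. All 11 rows tested had a negative mean genotype difference, with a median of -0.31, and 0 were called. Its most abundant rows were miR-19b-3p at -0.24, miR-92a-3p at -0.31, miR-19a-3p at -0.17 and miR-20a-5p at -0.51. In normoxia its median was -0.75 and in hypoxia 0.05. The p53-induced list had -0.46 and -0.09, and the 579 microRNAs tested had -0.28 and -0.05. Both lists had negative medians in normoxia and in the mean, as had the microRNAs tested. In hypoxia the medians of the 2 lists had opposite signs. Of the 579 microRNAs tested, 385 had a negative mean genotype difference. The part of p53 in these differences was not tested.

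Among 11 rows of microRNAs described as lowering p53, 8 had a negative and 3 a positive mean genotype difference, with a median of -0.10, and 0 were called. They were led by miR-125b-5p at -0.02, miR-30d-5p at -0.46, miR-25-3p at -0.10 and miR-125b-1-3p at 0.16. In WT hypoxia the median was 0.06 for the miR-34 members and 0.000235 for all microRNAs tested. The medians of the p53-induced, p53-repressed and p53-lowering lists were -0.11, -0.24 and -0.08. In KO hypoxia these lists had 0.18, 0.62 and 0.20, against 0.27 for the members and 0.24 for all microRNAs tested.

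**Figure D5:**
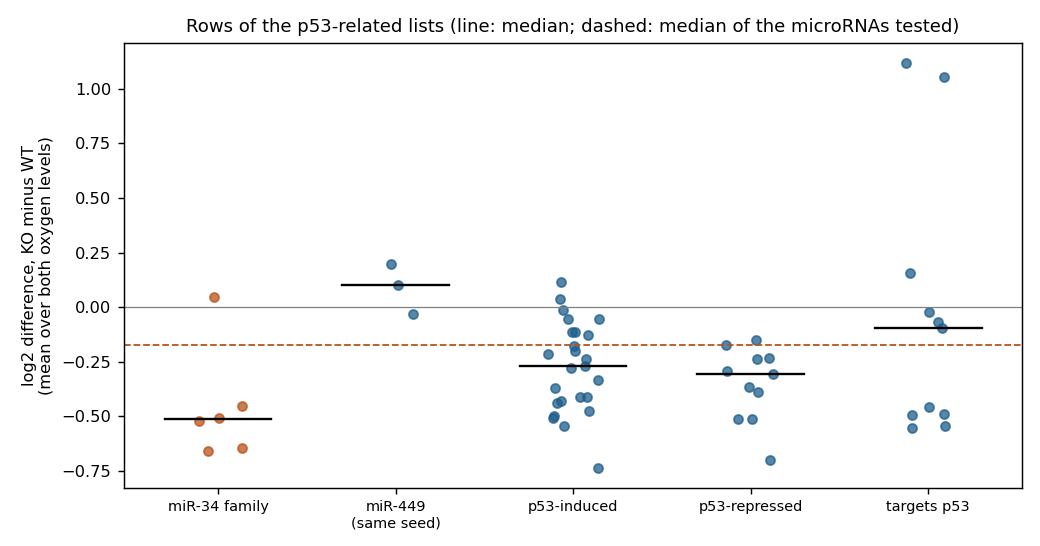
Log2 differences of the miR-34 rows and of the rows of the miR-449 and p53 lists, KO minus WT averaged over oxygen levels, with each list's median. The medians are -0.51 for the miR-34 rows, -0.27 for p53-induced and -0.31 for p53-repressed microRNAs, and no row passes an adjusted p of 0.05.

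Levels of other cells' markers were set beside the genotype comparison of the miR-34 rows. The epithelial and ciliated markers, 12 rows with 4 under 10 in every library and 0 at 0, summed to 1108 to 1229 in WT and 967 to 1333 in KO, so their ranges overlapped. The endothelial markers summed to 143 to 191 in WT and 102 to 145 in KO, the muscle markers to 128 to 292 and 116 to 235, and the neural markers to 830 to 1201 and 573 to 950. The haematopoietic markers summed to 1579 to 3078 in WT and 841 to 2245 in KO, and the fibroblast markers to 4497135 to 5809119 and 3667071 to 5260142. Most of the haematopoietic sum was miR-451, at 1479 to 2986 in WT and 790 to 2173 in KO. Of the 6 haematopoietic rows, 2 were under 10 in every library. The part of these levels in the lower KO values of miR-34 was not tested.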

How the data were processed

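The members and lists were chosen with earlier results of these data known. Per the labels, the kits were miRNeasy for the RNA and NEBNext small RNA for SOLiD for the libraries. The deposited table holds 1 score per feature and library, per the labels a normalized read count, made by the authors. Its values are whole numbers that sum to 8618630 to 12167438. Trimming, alignment and normalization are not described in the sources used here. Since the values are normalized, no count model was used.

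The 1540 features with at least 10 in at least 2 libraries were fitted in limma 3.58.1 (R 4.3.3), using log2(value + 1), its intensity trend and a mean for each of the 4 groups. There were 4 residual and 5.64 prior degrees of freedom. Adjustment was by Benjamini-Hochberg over all 1540, at a threshold of 0.05. Within-library log2 ratios (pseudocount 1) were compared by exact permutation (Python 3.11.15, numpy 2.4.6). The fit was tested on simulated data.

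Named were every member, list rows among the 4 highest by mean or passing a contrast between 2 groups, and the 5 microRNAs outside the family most correlated with the top row of each hairpin. Replicate numbers were not used as pairs in these fits. Alternatives were pseudocounts, filters, scalings, microRNAs alone, no trend, a block for the replicate number, fewer groups, and leaving out each library. Those for the counts of groups that do not overlap were chosen after seeing the data.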

Additional observations from a re-analysis of the deposited data

How the results depend on the processing

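Over 780 alternative values of the 42 member differences, none passed the adjusted threshold, and the number of members called was 0 in every setting run. In the 280 alternatives for the 5 rows other than miR-34a-3p, no difference between genotypes, in normoxia, in hypoxia or in their mean, changed sign. Many of these alternatives could not change a sign. The filters, microRNAs alone, no trend, the block, fewer groups and leaving out a library outside the comparison keep the estimate itself. Signs changed in 43 alternatives, 31 of them with a library left out, and the cause was not tested. Scaling to the microRNA total gave differences in WT hypoxia of -0.0151 for miR-34c-5p and -0.0124 for miR-34b-5p, in KO hypoxia of -0.0336 for miR-34a-5p and -0.00994 for miR-34b-3p, a mean hypoxia difference of -0.0716 for miR-34a-5p, and an interaction of -0.0215 for miR-34b-3p. Quantile normalization gave KO hypoxia differences of -0.107 for miR-34c-5p and -0.0236 for miR-34b-3p, mean hypoxia differences of -0.0467 and -0.00545, and interactions of -0.121 and -0.0363.

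Leaving out 1 library at a time, the KO minus WT difference in hypoxia ran from -1.04 to -0.0924 for miR-34a-5p, -0.766 to -0.0701 for miR-34c-5p, -0.898 to -0.0806 for miR-34b-3p, -0.624 to -0.0206 for miR-34b-5p and -0.948 to -0.152 for miR-34c-3p, with the low end without KO hypoxia 2 and the high end without KO hypoxia 1. The WT hypoxia difference ran from -0.0759 to 0.169 for miR-34c-5p, -0.28 to 0.19 for miR-34a-5p, -0.10 to 0.25 for miR-34b-3p, -0.0745 to 0.173 for miR-34b-5p and -0.0238 to 0.443 for miR-34c-3p. The KO hypoxia difference ran from -0.12 to 0.57 for miR-34c-5p, -0.36 to 0.59 for miR-34a-5p and -0.27 to 0.54 for miR-34b-3p. The mean hypoxia difference ran from -0.0378 to 0.310 for miR-34c-5p, -0.21 to 0.27 for miR-34a-5p and -0.10 to 0.31 for miR-34b-3p. The interaction ran from -0.17 to 0.53 for miR-34c-5p, -0.32 to 0.63 for miR-34a-5p, -0.35 to 0.47 for miR-34b-3p, -0.0366 to 0.567 for miR-34b-5p and -0.18 to 0.62 for miR-34c-3p. For miR-34a-3p the KO minus WT difference in hypoxia ran from -0.389 to 0.0622 and its mean over oxygen levels from -0.0646 to 0.161. The log2 ratio difference for KO against WT ran from -0.000422 to 0.17 for the arms of miR-34b and from -0.0470 to 0.0237 for miR-34b-3p over miR-34c-5p. For hypoxia against normoxia it ran from -0.00243 to 0.16 for the arms of miR-34b and from -0.200 to 0.0241 for miR-34a-5p over miR-34b-3p. Where this left a group with 1 library, that library was assumed to vary like the others.

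Members with every KO library below every WT library numbered 0, beside 3.51% of features, and 1 on the microRNA total, beside 1.75%. Their number ran from 0 to 5 when a library was left out, with 1 without WT normoxia 1 and 5 without KO hypoxia 2. Without KO hypoxia 2 the share of features was 7.99%, and for the other removals it was not computed. These alternatives were chosen after seeing the data. With the replicate number as a block, members called stayed at 0, while the calls over all features for the mean genotype difference went from 2, both lower in KO, to 91 (78 higher and 13 lower). Calls went to 85 on the microRNA total (81 higher and 4 lower in KO), to 29 without WT hypoxia 2 (25 higher and 4 lower) and to 4 without KO hypoxia 2. Calls over all features for WT hypoxia went from 0 to 8 under the block and to 1 with a pseudocount of 8 or a mean of at least 50, those for the mean hypoxia difference from 0 to 3 under the block, and those for KO minus WT in normoxia from 1 to 2 with no trend or without WT hypoxia 2. Under the block the lowest adjusted p of a member by limma was 0.0846, for the mean genotype difference of miR-34c-3p. Deviations by number correlated between groups at 0.15 to 0.55, but each group has just 2 numbers and no label ties them, so the numbers were not read as pairs. The counting interval was at most ± 9.97% of a member's value, and 2 libraries per group left 4 residual degrees of freedom.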
